A study of Mus musculus with 6 samples.

Results

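The mitochondrial ribosome is built from proteins that are encoded in the nucleus, translated in the cytosol and imported. Their symbols begin with Mrpl for the large subunit and Mrps for the small subunit. Rows of the deposited TPM table were taken as members where the gene symbol was Mrpl or Mrps followed by a digit, which gave 78 of 25124 listed genes, 49 of them Mrpl and 29 Mrps. TPM is a transcript level scaled for transcript length and for the total of its library. The measurements came from 2 groups of RAW264.7 cells, a mouse macrophage-like line, with 3 RNA sequencing libraries each. The M2 group received IL-4 at 10 ng/ml, the cytokine that polarizes macrophages toward alternative activation, and the M0 group received none. Cells of both groups belonged to a control line made with a Cas9 plasmid that carried no guide sequence, kept for comparison with E4BP4 knockout cells, and were grown with 25 mM glucose and 10% serum below passage 15. The labels do not say whether that line is a clone. A re-analysis note stands in the title of each M0 library but of no M2 library, and a batch difference tied to it cannot be told apart from the effect of IL-4.

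Mitochondrial ribosomes translate the few messages that mitochondrial DNA encodes, all of them for core subunits of the respiratory chain and ATP synthase. The large subunit holds the peptidyl transferase centre and the exit tunnel, and the small subunit binds the message and decodes it. Some of the proteins have bacterial counterparts, and others are found only in mitochondria. Alternatively activated macrophages are known for a high reliance on mitochondrial respiration. By position in the solved ribosome, the proteins of Mrps30 and Mrps18a sit in the large subunit despite their symbols, and that of Mrps36 belongs to the 2-oxoglutarate dehydrogenase complex. Sorted by structure, the members then comprised 51 large subunit genes, 26 small subunit genes and Mrps36.

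Per library, 15615639 to 19511192 reads could be recovered from TPM, and the members held 64972 to 103638 of them. No member lay below the filter (1 TPM or more in 3 or more libraries), and the fewest reads for a member in a library were 79, for Mrps36. All 10 macrophage markers checked were above a mean of 1 TPM, with summed levels of 2496 to 2606 TPM in M2 libraries and 3010 to 3237 TPM in M0 libraries. Arg1, an arginase induced by IL-4, stood at 15.3 ± 0.653 TPM in M2 and 0.174 ± 0.0719 TPM in M0 (SD, n = 3 each). It was among 7 alternative activation markers checked, of which 5 had a mean of 1 TPM or more over all libraries. The remaining ones, Retnla and Chil3, were nearly absent, at 0.077 and 0.067 TPM in M2 and 0.041 and 0 TPM in M0. The markers of T cells, B cells, fibroblasts, epithelium, endothelium and erythroid cells summed to 0 to 1.08 TPM per library, and those of granulocytes to 4.12 to 5.75 TPM in M2 and 4.51 to 5.85 TPM in M0. Among the markers at 0 in all libraries were 2 of 5 for T cells, 1 of 3 for B cells, 1 of 4 for epithelium and 3 of 4 for erythroid cells. Since the labels do not state that replicates came from different cultures, the p-values reflect the spread among these libraries alone, and that spread may be technical. M2 replicate 3 stood apart from M2 replicates 1 and 2 by a trend with transcript length, and results are therefore given with and without it.

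IL-4-treated cells had higher mRNA levels of a large part of the mitochondrial ribosomal proteins, by small amounts. Of the 78 members, 33 rose in M2, 0 fell and 45 did not pass (limma, adjusted p under 0.05 over all 11202 tested genes). Over all tested genes 20.1% rose and 23.7% fell. At an unadjusted p under 0.05, 39 members were higher and 3 lower, against 23.7% and 28.1% of all tested genes. On recovered reads, limma-voom called 33 members higher and 0 lower, beside 23.9% of all tested genes higher and 23.9% lower. The members that rose did so by 1.16-fold to 1.59-fold (ratio of mean TPM), with a median of 1.26-fold, and 3 of them exceeded 1.5-fold. The median log2 fold change on log2(TPM + 1) was 0.17 over all members and -0.03 over all tested genes. In these bulk libraries, a change in the number of cells with a message and a change in message per cell cannot be told apart.

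**Figure D1:**
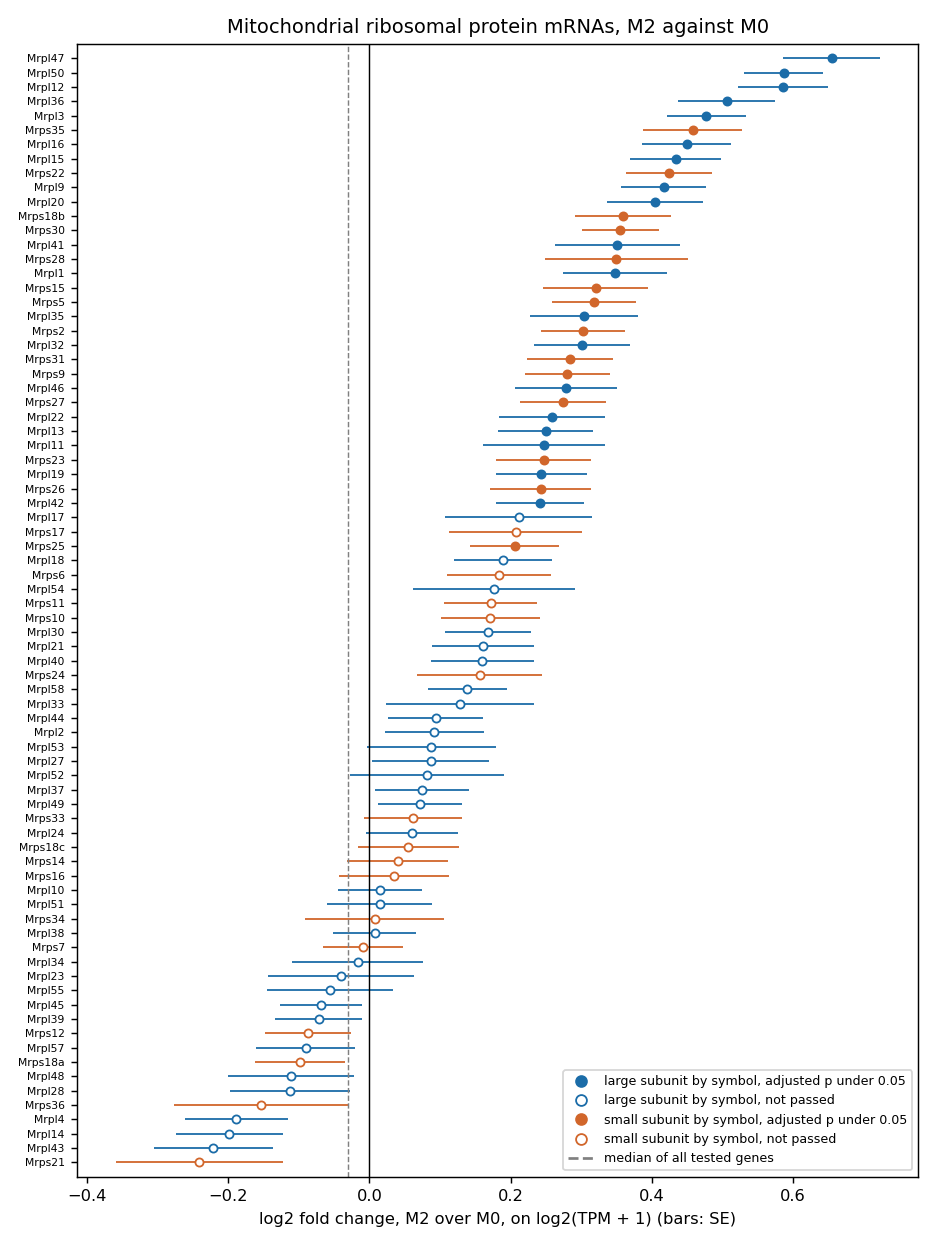
Log2 fold change of each of the 78 members, M2 over M0, on log2(TPM + 1), with SE bars, coloured by subunit as the symbol gives it; filled points passed an adjusted p under 0.05 and the dashed line is the median of all 11202 tested genes. All 33 filled points lie right of 0, between 0.21 and 0.65, and 16 members lie left of 0, of which none passed.

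In the large subunit, 19 of 49 Mrpl genes rose (38.8%) and 0 fell. Mrpl47 encodes uL29m, a protein at the rim of the exit tunnel, and had 71.1, 70.7 and 79.7 TPM in the M2 libraries against 44.5, 49.4 and 45.7 TPM in the M0 libraries. All M2 libraries lay above all M0 libraries, and the log2 fold change of 0.65 (SE 0.0685, adjusted p = 0.000132 by limma) was the highest among the members. Mrpl50 encodes a mitochondria-specific protein and had 45.9, 47.8 and 48.4 TPM in M2 against 30.8, 32.1 and 30.6 TPM in M0. It was 1.52-fold higher in M2 (log2 fold change 0.59, SE 0.0561, adjusted p = 8.10e-05 by limma), and the groups were again apart.

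Mrpl12 encodes the bL12m protein of the stalk that recruits translation factors, and its product has also been described as a partner of the mitochondrial RNA polymerase. It was the most abundant member in each library, with 255, 251 and 275 TPM in M2 against 185, 167 and 168 TPM in M0. The groups did not overlap (log2 fold change 0.59, SE 0.0635, adjusted p = 0.000162 by limma). Of the member TPM, Mrpl12 took at least 5.24% in each M2 library and at most 4.21% in each M0 library. Mrpl10, which anchors the stalk, had means of 44.5 ± 2.24 TPM in M2 and 43.9 ± 0.970 TPM in M0 (SD, n = 3 each) and did not pass (adjusted p = 0.853). Mrpl11, at the stalk base, rose, with 21.2, 23.3 and 26.7 TPM in M2 against 20.3, 19.4 and 19.6 TPM in M0. Its call (adjusted p = 0.0437) ended without M2 replicate 3 (0.0539), and held in 7 of 16 alternatives, within a range of 0.0184 to 0.122.

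Mrpl36, a small protein with a bacterial counterpart, completed the 4 largest rises of the Mrpl genes, with 59.2, 55.4 and 61.7 TPM in M2 against 44.1, 38.8 and 40.4 TPM in M0. The groups did not overlap (1.43-fold, log2 fold change 0.51, SE 0.0684, adjusted p = 0.000503 by limma). Next came Mrpl3, near the peptidyl transferase centre, with 102, 108 and 105 TPM in M2 against 79.2, 73.4 and 72.9 TPM in M0. Mrpl16, Mrpl15, Mrpl9 and Mrpl20, which all have bacterial counterparts, were 1.33-fold to 1.37-fold higher in M2. Mrpl1, of the stalk through which spent transfer RNA leaves, was 1.29-fold higher.

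Of the members around the exit tunnel named here, Mrpl47 and Mrpl22 rose. Mrpl22 stood at 38.0 ± 3.60 TPM in M2 and 31.5 ± 1.10 TPM in M0 (SD, n = 3 each; adjusted p = 0.0222 by limma). Mrpl23 had 17.7, 14.2 and 17.7 TPM in M2 against 16.3, 15.9 and 18.9 TPM in M0, with overlapping groups. Mrpl24 stood at 101 ± 7.89 TPM in M2 and 96.4 ± 1.89 TPM in M0, and neither gene passed. Mrpl45, which lies at the tunnel mouth and faces the inner membrane, had 33.0 ± 1.29 TPM in M2 and 34.6 ± 0.737 TPM in M0 (adjusted p = 0.368). In the central protuberance, the crest that faces the small subunit, Mrpl46 rose 1.22-fold (adjusted p = 0.0137), while Mrpl38 was at 1.00 times its M0 level (adjusted p = 0.931) and Mrpl40 and Mrpl18, at 1.12 and 1.14 times, did not pass. Mrpl58, a release factor-like protein known to free stalled chains, had 45.0, 43.2 and 45.3 TPM in M2 against 41.5, 40.5 and 39.0 TPM in M0. Its M2 libraries lay above its M0 libraries, but it did not pass (adjusted p = 0.0733), nor did Mrpl44, a protein with an RNase III fold, at 1.07 times its M0 level.

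In the small subunit, 14 of 29 Mrps genes rose (48.3%) and 0 fell. Mrps35 had 59.2, 60.3 and 68.8 TPM in M2 against 43.5, 46.8 and 45.8 TPM in M0, and Mrps22, whose human counterpart is mutated in a respiratory chain disorder, had 64.4, 68.1 and 66.8 TPM in M2 against 51.9, 46.3 and 49.8 TPM in M0. Both encode mitochondria-specific proteins, and in both the groups were apart. Their log2 fold changes were 0.46 (SE 0.0701, adjusted p = 0.000986 by limma) for Mrps35 and 0.42 (SE 0.0608, adjusted p = 0.000685) for Mrps22. Mrps18b was 1.29-fold higher (log2 fold change 0.36, SE 0.0680, adjusted p = 0.00297 by limma). Mrps30, a large subunit protein by structure, had close replicates, with 53.8, 54.3 and 53.5 TPM in M2 against 40.1, 42.8 and 42.9 TPM in M0 (log2 fold change 0.36, SE 0.0548, adjusted p = 0.00103 by limma).

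Among proteins that handle the message and the codon, some rose and some did not pass. Mrps5, at the channel where the message enters, rose to 44.5 ± 2.39 TPM in M2 against 35.5 ± 0.304 TPM in M0 (adjusted p = 0.00277 by limma), and Mrps27, a pentatricopeptide repeat protein, to 23.5 ± 0.519 TPM against 19.3 ± 0.416 TPM (SD, n = 3 each; adjusted p = 0.00635). Mrps12, at the decoding centre, had 38.5, 41.2 and 41.8 TPM in M2 and 41.2, 43.7 and 44.4 TPM in M0. Its groups overlapped and it did not pass (log2 fold change -0.09, SE 0.0609, adjusted p = 0.270 by limma). Mrps26, the most abundant of the Mrps genes, rose 1.19-fold to 143 ± 11.4 TPM in M2 against 121 ± 6.99 TPM in M0 (adjusted p = 0.0228). Neither Mrps18a, of the large subunit by structure, at 67.0 ± 4.63 TPM in M2 and 71.7 ± 2.19 TPM in M0, nor Mrps36, at 8.45 ± 1.24 and 9.50 ± 1.31 TPM in the same order, passed.

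**Figure D2:**
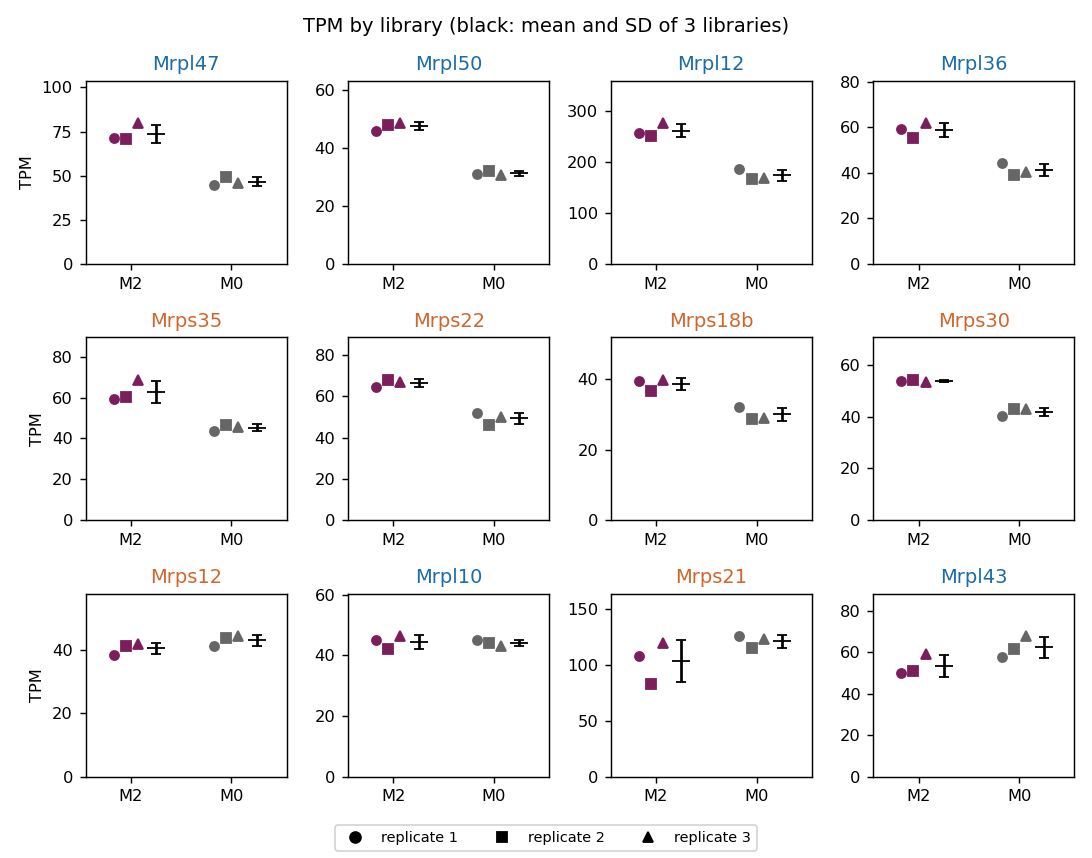
TPM in each of the 3 M2 and 3 M0 libraries (symbols by replicate number) with mean and SD in black, for the 4 largest rises of each subunit by symbol and 4 members that did not pass; blue titles mark Mrpl and orange titles Mrps genes, and axes start at 0. The groups are apart in the upper 8 panels and overlap in the panels of Mrps12, Mrpl10, Mrps21 and Mrpl43.

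The libraries of the groups did not overlap for 40 members that were higher in M2 (23 Mrpl and 17 Mrps) and for 1, Mrpl39, that was lower. Over all tested genes these shares were 25.1% and 30.8%. Mrpl39, named because it was the only such case, stood at 34.8 TPM in M2 and 36.6 TPM in M0 and did not pass. Of the 33 members that rose, 21 passed and were higher in M2 in each of the 16 alternatives run, 11 of them Mrpl and 10 Mrps. They included Mrpl47, Mrpl50, Mrpl12, Mrpl36, Mrpl3, Mrps35, Mrps22, Mrps18b, Mrps30, Mrps5 and Mrps27. Of the named rises not among the 21, Mrpl46 passed in 15, Mrpl22 and Mrps26 in 13 and Mrpl11 in 7 of the 16 alternatives.

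The summed levels of both subunits were higher in M2. The summed level of the 49 Mrpl genes was 3132, 3049 and 3433 TPM in M2 against 2871, 2713 and 2793 TPM in M0, and that of the 29 Mrps genes was 1663, 1597 and 1823 TPM in M2 against 1527, 1468 and 1547 TPM in M0. In both sums each M2 library lay above each M0 library, and M2 replicate 3 was the highest. The ratio of the means, M2 over M0, was 1.15 for Mrpl and 1.12 for Mrps, and 1.11 and 1.08 without M2 replicate 3. The Mrpl sum over the Mrps sum was 1.88, 1.91 and 1.88 in M2 and 1.88, 1.85 and 1.81 in M0. The lowest M2 ratio and the highest M0 ratio both round to 1.88. No test was made on these sums, since the members were chosen with earlier results known.

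**Figure D3:**
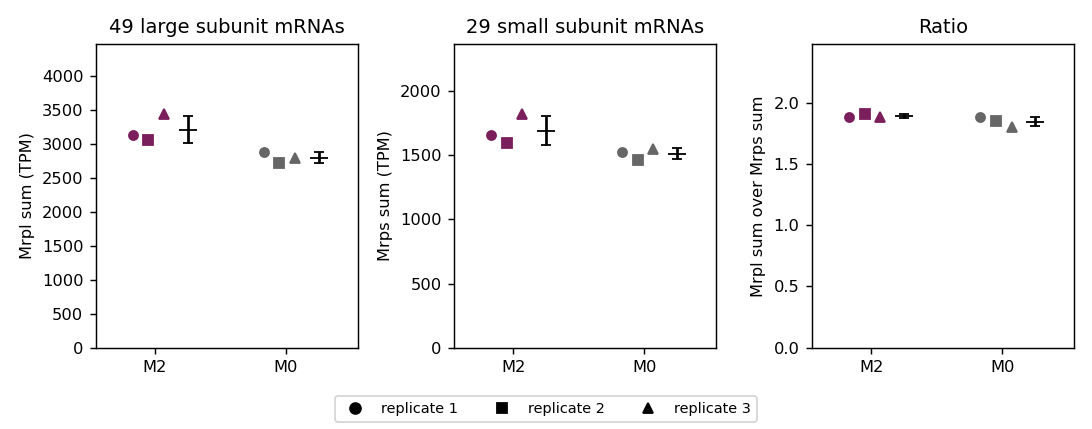
Summed TPM of the Mrpl genes, of the Mrps genes, and their ratio, in each of the 3 M2 and 3 M0 libraries (symbols by replicate number), with mean and SD in black and axes from 0. Both sums are higher in each M2 library than in any M0 library, and the ratio lies between 1.81 and 1.91 throughout.

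Gene by gene, the median log2 fold change was 0.16 for Mrpl and 0.21 for Mrps genes. With the members sorted by structure, 20 of 51 large subunit genes rose (39.2%) and 13 of 26 small subunit genes, with medians of 0.16 and 0.21. Among members with bacterial counterparts, 15 of 30 in the large and 5 of 16 in the small subunit rose. Among mitochondria-specific members the counts were 5 of 21 in the large and 8 of 10 in the small subunit. The medians of these mitochondria-specific genes were 0.08 in the large and 0.26 in the small subunit. Those of the genes with bacterial counterparts were 0.23 and 0.17 in the same order. These splits are counts without a test, beside 20.1% of all tested genes. The counts of genes with bacterial counterparts moved more with the processing than those of mitochondria-specific genes. Without M2 replicate 3, 14 of 30 large and 5 of 16 small subunit genes with bacterial counterparts rose, and 4 and 1 fell. In that fit, 5 of 21 and 8 of 10 mitochondria-specific genes rose, and 2 and 0 fell. The shares of all tested genes there were 25.6% and 25.2%. With the length trend removed, 18 of 30 large and 9 of 16 small subunit genes with bacterial counterparts rose, and 2 and 1 fell. Of the mitochondria-specific genes, 6 of 21 and 8 of 10 rose in that fit, and 1 and 0 fell. Over all tested genes, 28.4% rose and 27.1% fell in it.

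Levels of the members spanned a wide range although most of the proteins are present in a copy each per ribosome. On the TPM scale, which is per transcript length, Mrpl means ran from 8.58 TPM (Mrpl48) to 261 TPM (Mrpl12) in M2 and from 9.34 to 173 TPM in M0, for the same genes. Mrps means ran from 8.45 TPM (Mrps36) to 143 TPM (Mrps26) in M2 and from 9.50 to 121 TPM in M0, again for the same genes. Both low ends carry a limit. Mrpl48 was scaled to a model of 4547 bases, while its model in the authors' deposited table has 932 bases, and TPM depends on that length. Mrps36 is not a ribosomal protein by structure. The lowest Mrps mean besides it was that of Mrps33, at 14.1 TPM in M2 and 13.5 TPM in M0. Mrpl12 is an exception in copy number, since several copies of its protein form the stalk.

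Member transcripts are short, with a median model length of 1048 bases against 2645 bases over all tested genes, and M2 replicate 3 favoured short transcripts. Relative to the mean of M2 replicates 1 and 2, its log2 values stood at a median difference of 0.15 for tested genes under 1000 bases and of -0.17 for those of at least 2000 bases. For members the same medians were 0.19 under 1000 bases (33 members) and 0.10 at 2000 bases or more (12 members). M2 replicate 3 was the highest M2 library for 62 of 78 members (79.5%) and for 24.3% of all tested genes. On the scale of log2(TPM + 1), the median difference of members from their M0 mean was 0.15, 0.09 and 0.28 in M2 replicates 1, 2 and 3.

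**Figure D4:**
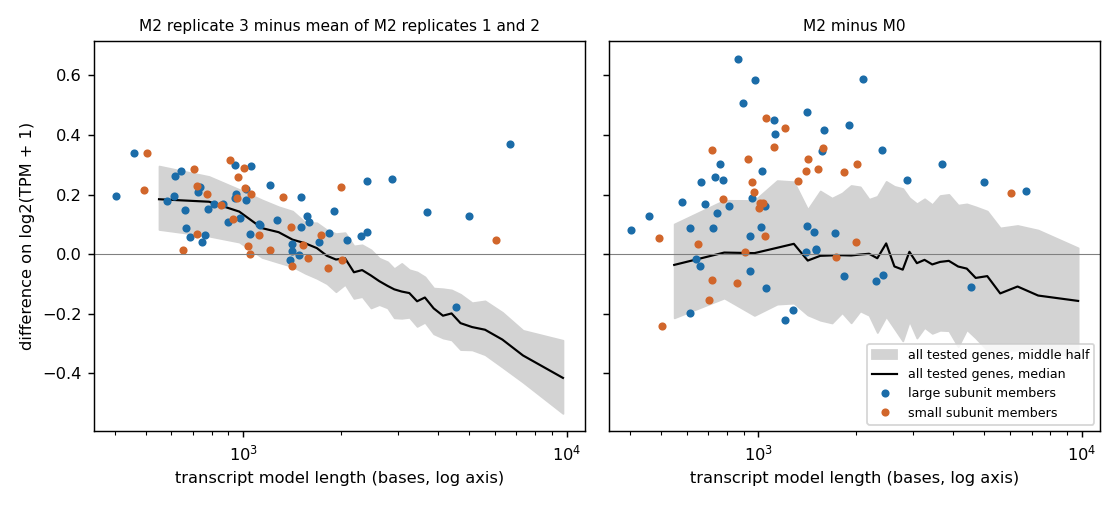
Left, M2 replicate 3 minus the mean of M2 replicates 1 and 2, and right, M2 minus M0, on log2(TPM + 1) against transcript model length (log axis), for members (blue, large; orange, small subunit) over the median and quartiles of all tested genes of at least 300 bases. On the left the median of all genes slopes downward with length, with class medians from 0.15 under 1000 bases to -0.17 at 2000 bases or more; on the right most members lie above the median line.

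Without M2 replicate 3 most of the rises were kept and some members fell. In that fit 32 members rose, all of them among the 33, and 7 fell, with 25.6% and 25.2% of all tested genes rising and falling. The gene lost was Mrpl11. The 7 that fell were Mrpl43, Mrpl14, Mrpl4, Mrpl28 and Mrpl55 in the large subunit and Mrps21 and Mrps18a among the Mrps genes, named after their values were seen. Mrps21 had 107 and 82.6 TPM in M2 replicates 1 and 2 and 119 TPM in M2 replicate 3, against 126, 114 and 122 TPM in M0. Its log2 fold change was -0.35 without M2 replicate 3 (adjusted p = 0.0174 by limma) and -0.24 with it (adjusted p = 0.129). Mrpl43, a mitochondria-specific protein, had 49.9, 50.9 and 59.3 TPM in M2 against 57.5, 61.5 and 67.9 TPM in M0, with adjusted p = 0.00780 without M2 replicate 3 and 0.0625 with it. By subunit, 18 Mrpl and 14 Mrps genes rose and 5 Mrpl and 2 Mrps genes fell, and the medians were 0.10 and 0.16. With the length trend removed from all 6 libraries, 41 members rose and 4 fell, beside 28.4% and 27.1% of all tested genes.

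**Figure D5:**
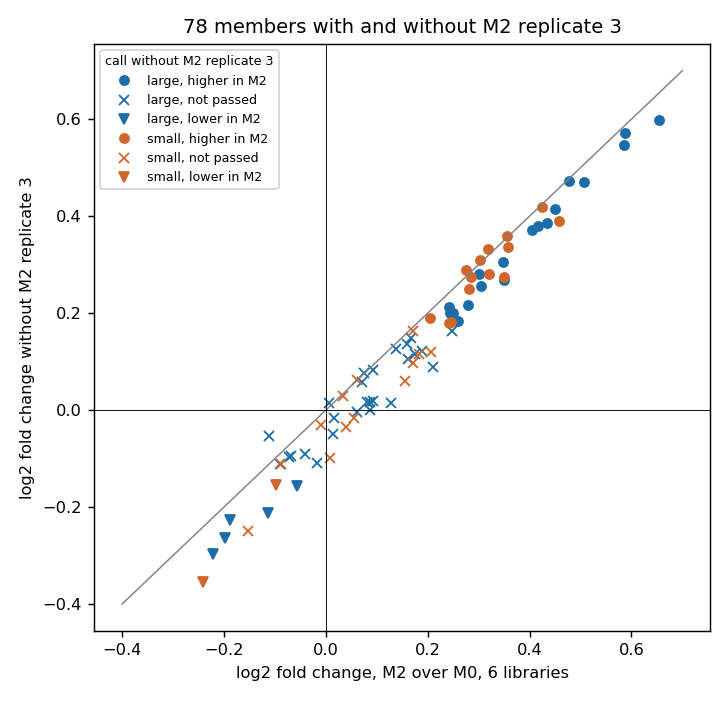
Log2 fold change, M2 over M0, of each member with all 6 libraries (horizontal axis) and without M2 replicate 3 (vertical axis), coloured by subunit as the symbol gives it and marked by the call without that library; the grey line marks equal values. Most points lie below the line, and the 7 triangles at the lower left are the members that fell without M2 replicate 3.

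Proteins of the same ribosome that carry other symbols were looked up from a list. Of the 7 listed, 5 were found in the table, of which 2 rose and 0 fell, beside 20.1% and 23.7% of all tested genes. Ptcd3, whose protein helps bring the message to the small subunit, had 96.3, 106 and 86.9 TPM in M2 against 62.0, 64.3 and 63.2 TPM in M0 (log2 fold change 0.60, SE 0.0740, adjusted p = 0.000313 by limma). Its groups were well apart, and it was higher without M2 replicate 3 as well. Dap3 rose 1.13-fold (adjusted p = 0.0430), while Chchd1, Gadd45gip1 and Aurkaip1 were at 1.11, 1.07 and 1.07 times their M0 level and did not pass.

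Other genes of mitochondrial gene expression were counted from lists, to be read beside the 20.1% of all tested genes that rose and the 23.7% that fell. Of 27 assembly factors of the mitochondrial ribosome, 11 rose and 2 fell, with a median log2 fold change of 0.18 on log2(TPM + 1). Fastkd2, an RNA-binding assembly factor, had 40.6, 42.6 and 38.6 TPM in M2 against 23.3, 24.6 and 22.3 TPM in M0, and was 1.74-fold higher. Mrm3, a ribosomal RNA methyltransferase, Rpusd4, a pseudouridine synthase, and Noa1, a GTPase, rose by 1.47-fold to 1.54-fold. The helicase gene Ddx28 and the methyltransferase gene Nsun4 fell, Ddx28 to 21.5 ± 0.578 TPM in M2 against 26.4 ± 0.893 TPM in M0 (SD, n = 3 each; adjusted p = 0.00574 by limma).

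Of 20 genes for mitochondrial aminoacyl-tRNA synthesis 10 rose and 0 fell. At an unadjusted p under 0.05, 13 were higher and 0 lower, beside 23.7% and 28.1% of all tested genes. Wars2, the tryptophan enzyme, rose 1.94-fold, Mars2, the methionine enzyme, 1.78-fold, and Gatc, of the enzyme that makes glutaminyl-tRNA, 1.54-fold. Yars2, the tyrosine enzyme, rose to 37.3 ± 1.02 TPM in M2 against 24.8 ± 1.45 TPM in M0 (SD, n = 3 each). Of 19 genes for copying and transcribing mitochondrial DNA and for handling its RNA 10 rose and 0 fell. At an unadjusted p under 0.05, 13 were higher and 0 lower, beside the same 23.7% and 28.1%. Trmt10c, part of the enzyme that processes mitochondrial transfer RNA, had 41.0, 43.9 and 41.9 TPM in M2 against 27.0, 26.2 and 26.0 TPM in M0. The elongation factor gene of the mitochondrial polymerase, Tefm, rose 1.59-fold, Mgme1, a nuclease of mitochondrial DNA, 1.53-fold, and Tfb2m, an initiation factor of the polymerase, 1.52-fold. Without M2 replicate 3, 11 genes rose in each of these lists, and 0 of the aminoacyl-tRNA list and 1 of the other fell, beside 25.6% of all tested genes that rose and 25.2% that fell.

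Of 15 mitochondrial translation factors, 5 rose and 1 fell, with a median of 0.10. Pdf, which removes the formyl group from new chains, rose 1.40-fold, Mrrf, the recycling factor, 1.34-fold, and Gfm1, an elongation factor, 1.16-fold, while Mtfmt, which adds the formyl group to the initiator, fell to 25.2 ± 0.884 TPM in M2 against 29.3 ± 0.390 TPM in M0 (SD, n = 3 each; adjusted p = 0.0179 by limma). Of 77 tested genes for cytosolic ribosomal proteins, 4 rose and 1 fell, with a median of 0.02, beside 20.1% and 23.7% of all tested genes. Rpl5, Rpl7, Rps4x and Rpl10 rose and Rpl28 fell. Without M2 replicate 3, 4 rose and 7 fell, with a median of -0.04, beside 25.6% and 25.2% of all tested genes. With the length trend removed 13 rose and 4 fell, beside 28.4% and 27.1% of all tested genes. Whether the mitochondrial and cytosolic lists differ was not tested.

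Promoters of members that rose and of members that did not pass were searched for motifs. In mammals, NRF1, GABPA and YY1 are known to drive many nuclear genes for mitochondria, and MYC with MAX binds E-boxes of many growth genes. RefSeq promoter sequences of GRCm38.p6 were matched for 69 members, and the 250 bases before the start were searched on both strands. Printed here are the upstream bases of Mrpl47, the largest rise, of Mrpl12 and Mrpl36, the largest Mrpl rises that held a motif, and of Mrps22, the largest Mrps rise with an entry. Capitals mark the motifs found.
Mrpl47: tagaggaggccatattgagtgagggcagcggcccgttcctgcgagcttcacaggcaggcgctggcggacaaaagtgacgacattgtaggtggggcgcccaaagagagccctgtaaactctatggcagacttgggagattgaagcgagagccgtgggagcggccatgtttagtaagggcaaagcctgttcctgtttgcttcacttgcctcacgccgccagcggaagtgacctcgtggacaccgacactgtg
Mrpl12: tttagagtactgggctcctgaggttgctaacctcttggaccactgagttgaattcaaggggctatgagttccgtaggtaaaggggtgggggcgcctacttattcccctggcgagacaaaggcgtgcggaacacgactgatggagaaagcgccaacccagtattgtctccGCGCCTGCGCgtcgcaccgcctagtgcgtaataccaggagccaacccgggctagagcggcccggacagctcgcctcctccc
Mrpl36: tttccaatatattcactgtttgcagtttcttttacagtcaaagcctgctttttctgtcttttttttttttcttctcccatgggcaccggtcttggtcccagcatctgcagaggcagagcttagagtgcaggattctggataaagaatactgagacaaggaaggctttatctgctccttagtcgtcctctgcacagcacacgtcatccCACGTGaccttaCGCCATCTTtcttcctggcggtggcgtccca
Mrps22: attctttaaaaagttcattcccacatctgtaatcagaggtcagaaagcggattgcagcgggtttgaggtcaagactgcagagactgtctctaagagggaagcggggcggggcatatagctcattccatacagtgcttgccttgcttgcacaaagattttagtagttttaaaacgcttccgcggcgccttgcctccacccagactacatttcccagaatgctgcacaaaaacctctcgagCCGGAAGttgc
These stretches lie at chr3:32736756-32737005 (minus strand) for Mrpl47, chr11:120484387-120484636 (plus strand) for Mrpl12, chr13:73330759-73331008 (plus strand) for Mrpl36 and chr9:98601680-98601929 (minus strand) for Mrps22. Mrpl47 had none of the 4 motifs in this window. Mrpl12 held the NRF1 motif, Mrpl36 an E-box and a YY1 motif, and Mrps22 a GABPA motif close to the start.

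The NRF1 motif (GCGC, any base, TGCGC) was in 10 of 69 member promoters (14.5%) and in 9.65% of the 8558 promoters of tested genes. The GABPA motif CCGGAAG was in 16 (23.2%, against 16.0%), the YY1 motif AAGATGGCG in 2 (2.90%, against 1.34%) and the E-box CACGTG in 5 (7.25%, against 8.81%). None of these motifs overlapped another in the 4 sequences shown. Among promoters of members that rose, 5 of 28 held the GABPA motif, against 11 of 41 for members that did not pass. The NRF1 counts in the same order were 3 of 28 and 7 of 41. A match describes these letters and not binding. Of the genes for such factors, Nrf1, Gabpa, Gabpb1 and Yy1 did not pass, with log2 fold changes of -0.05, 0.05, -0.08 and -0.04 (adjusted p = 0.693, 0.698, 0.470 and 0.666 by limma). Myc, Max, Esrra, Pprc1 and Ppargc1b rose, and 0 of 9 tested genes of that list fell, beside 20.1% and 23.7% of all tested genes. At an unadjusted p under 0.05, 5 of 9 were higher and 0 lower, beside 23.7% and 28.1% of all tested genes. Log2 fold changes of the 9 ran from -0.08 to 2.05. Ppargc1a lay below the filter.

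On mm10, the build that the submitters' processing notes name, the model of Mrpl47 is NM_029017, chromosome 3, 32727497 to 32736755, minus strand. That of Mrpl50 is NM_178603, chromosome 4, 49512597 to 49521083, minus strand, and that of Mrpl12 is NM_027204, chromosome 11, 120484637 to 120488754, plus strand. Mrpl36 is measured on NM_053163, chromosome 13, 73331009 to 73332178, plus strand, Mrps35 on NM_145573, chromosome 6, 147042770 to 147070902, plus strand, and Mrps22 on NM_025485, chromosome 9, 98588730 to 98601679, minus strand. Exons of another gene overlap exons of 26 members in GENCODE M21, for 22 of them on the opposite strand, and 11 of the 33 members that rose are among the 26. For Mrpl47 these are Ndufb5, a subunit of respiratory complex I (149 TPM in M2 and 134 TPM in M0, not passed), and Actl6a (119 TPM in M2 and 102 TPM in M0, adjusted p = 0.00598 by limma). For Mrpl36 it is Ndufs6, also of complex I, at 112 TPM in M2 and 111 TPM in M0. No source used here states whether counting was by strand, and the origin of reads in such overlaps is uncertain.

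In the authors' deposited table of the comparison, 35 of the 78 members have an adjusted p under 0.05 with higher values in M2, 33 of them those that rose here, and 0 with lower values. Of 19142 genes with a fold change in the authors' deposited table, 13.6% are higher and 12.7% lower at that threshold. The authors' deposited table adds Mrpl18 and Mrpl48. Mrpl48 is listed on another transcript there: the TPM table uses NR_003559 with 4547 bases, and the authors' deposited table NM_198831 with 932 bases. On the first model Mrpl48 had 9.13, 8.79 and 7.81 TPM in M2 against 8.62, 9.77 and 9.65 TPM in M0, and did not pass (adjusted p = 0.338 by limma). In the authors' deposited table its log2 fold change is 0.34 with an adjusted p of 0.00774. The transcript, the normalization and the test all differ between these values. By limma on the authors' log2-scale values, the log2 fold change of Mrpl48 was 0.23 (adjusted p = 0.00385). By limma-voom on the reads recovered for the first model it was -0.09. What goes with the change of sign was not tested. In all, 13 members are on different transcripts in the TPM table and the authors' deposited table.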

How the data were processed

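Poly(A)-selected RNA was sequenced in 6 libraries, 3 per group, each made from 200 ng of total RNA; titles gave the groups and replicate numbers. Tools listed in the submitters' processing notes were STAR 2.7.5a, HOMER 4.11.1, bcl2fastq and DESeq2, with the build mm10. How reads were assigned by strand or when mapping to several places was not stated in any source used.

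Per the file headers, the first table holds TPM by the authors with a transcript model and its length. The second holds log2-scale normalized values deposited by the authors, with a transform the header does not name, their log2 fold change (positive where M2 is higher), p-value and adjusted p-value. The 11202 genes that reached 1 TPM in 3 or more libraries were fitted on log2(TPM + 1) by group in limma (version 3.58.1, R 4.3.3), using a variance trend and Benjamini-Hochberg adjustment. Fold changes on that scale understate those of low genes. TPM times length came in whole multiples of a step per library for 99.99% to 100.0% of values (within 0.1 read), which gave the recovered reads used for limma-voom. The fit was checked on simulated reads. Tables and plots used Python 3.11.15 with pandas 2.3.3, numpy 2.4.6 and matplotlib 3.10.9.

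The members and lists were chosen with earlier results of these data known. Members named were the 4 largest rises per subunit by symbol that passed with non-overlapping groups (0 falls qualified), the members of highest and lowest mean TPM in each subunit, and 12 chosen by role: Mrpl12, Mrpl10, Mrpl11, Mrpl58, Mrpl44, Mrpl45, Mrps12, Mrps5, Mrps27, Mrps30, Mrps18a and Mrps36. Further members were named after their values were seen. Up to 4 genes of each context list with the lowest adjusted p were named, with exceptions added for their role. No pair of libraries was a duplicate (chi-square per degree of freedom 2.18 to 19.6 within groups).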

Additional observations from a re-analysis of the deposited data

How the results depend on the processing

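The count of members that rose kept within 1.5 times of 33 under all 16 alternatives: 24 to 36 with a library left out, and 30 without the filter to 41 with the length trend removed. The count over all genes moved too, from 2248 as reported to 1646 (without M0 replicate 3) through 2869 (without M2 replicate 3) with a library left out. It was 1966 without the filter and 3177 with the length trend removed. No member that rose had a negative value under an alternative. The count of members that fell, 0 in the comparison as reported, was 0 to 7 with a library left out (7 without M2 replicate 3, 1 without M0 replicate 2), 4 with the length trend removed and 3 with the replicate block. Chosen after seeing the data, it was 6 with limma-voom without M2 replicate 3 and 5 with the length trend removed without M2 replicate 3. Over all genes, 2651 fell as reported, 2825 without M2 replicate 3, 1902 without M0 replicate 2 and 3037 with the length trend removed. In the fits chosen after seeing the data, 3099 and 3033 of all genes fell, in the same order. Medians of both subunits stayed positive throughout, and summed levels moved by less than the spread between libraries. Mrpl48 turned to 0.23 on the authors' log2-scale values, which use another transcript and another normalization; the cause was not tested.

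Equal replicate numbers did not clearly pair the libraries: the correlations of deviations from group means were -0.03, 0.21 and 0.03. The value of 0.21, for replicate 2 of both groups, was the highest of all pairs, while M2 replicate 3 correlated best with M0 replicate 1 (0.17). Deviations within a group constrain each other, so these values cannot exclude pairing. With the number as a replicate block, 34 members rose and 3 fell, beside 2236 and 2634 of all genes. With 3 libraries per group small changes can be missed, so members that did not pass are not shown to be equal.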

Other observations

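Of the 78 members, 27 (34.6%) start within 1000 bases of an opposite-strand gene that points away, against 16.0% of all tested genes. Of 25 such partners that were tested, 7 rose and 4 fell, beside 20.1% of all tested genes that rose and 23.7% that fell. Whether the partners differ from all genes was not tested. Mrpl46 and Mrps11, from different subunits, start 42 bases apart and point away from each other. Mrpl46 rose (log2 fold change 0.28, adjusted p = 0.0137 by limma) while Mrps11 had 0.17 and did not pass (0.0624). Each is a member and also counts as the partner of the other, so Mrpl46 is among the 7 partners that rose. The partner of Mrps27 is Ptcd2, another pentatricopeptide repeat gene, which rose with a log2 fold change of 0.34 (adjusted p = 0.00182). That of Mrpl50 is Zfp189, whose log2 fold change was -0.27 (adjusted p = 0.0605). Mrpl30 did not pass (adjusted p = 0.0516) and its partner Mitd1 rose (0.25, adjusted p = 0.0125).

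Members with long models differed in M2 replicate 3. Mrpl48, on the longer of its models, had its lowest M2 value there, at 7.81 TPM. Mrpl17, on a model of 6707 bases, had 28.8 TPM in that library and 21.8 and 22.4 TPM in M2 replicates 1 and 2. Over the 78 members, the difference of M2 replicate 3 from the mean of the other M2 libraries had a Pearson correlation of -0.31 with log2 length, and over the 11202 tested genes one of -0.40. Genes share these libraries and are not independent replicates.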
